A study of Homo sapiens with 4 samples.

Results

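Footprint levels were examined for the factors that deal with stalled ribosomes and with faulty mRNAs in human cells. The set holds 34 genes, chosen by name for their known roles: 20 act in ribosome quality control (sensing of collided ribosomes, silencing, subunit splitting, removal of the nascent chain) and 14 in nonsense-mediated decay. Of the 34, 33 were found among the 16292 transcripts listed in at least 1 library, each through 1 transcript, and ZNF598 was not analysed here. Footprints, the mRNA pieces that ribosomes cover, were sequenced (Ribo-seq) from HEK293 cells, an established line from human embryonic kidney. The 4 groups were wild type without erythromycin, wild type with erythromycin, RPL4 mutant without erythromycin and RPL4 mutant with erythromycin, with 1 library in each. RPL4 is a large-subunit protein that lines the exit tunnel of the ribosome, and erythromycin is an antibiotic that binds that tunnel in bacterial ribosomes. The protocol shared by all groups describes stable lines carrying GFP, wild type L4 or a Δloop mutant, infected with lentiviral shRNA against RPL4 or a scramble control, and it names CHX (cycloheximide) and LTM (lactimidomycin) to hold elongating or initiating ribosomes. The labels do not tie a line, an shRNA or either ribosome inhibitor to a library, and they give no dose of erythromycin.

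When a ribosome stalls, the one behind runs into it, and the collided pair is marked by ubiquitin on the small subunit. The leading ribosome is then pulled apart, further initiation on the mRNA is held back, and the unfinished chain left on the large subunit is tagged, extracted and degraded. Nonsense-mediated decay instead removes mRNAs on which termination takes place too far upstream, often of a splice junction that still bears an exon junction complex. UPF1 carries out this decay, with UPF2, UPF3A or UPF3B as bridges to the junction complex and SMG proteins that phosphorylate UPF1 or act on the phosphorylated form.

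MAGOH and MAGOHB, the near-identical proteins that clamp the exon junction complex together with RBM8A, were the closest paralogues among the members. The start of the MAGOH coding sequence is shown beside the aligned bases of MAGOHB to mark where the copies differ. Within this stretch no run as long as a footprint (28 bases) is free of differences. The lines give bases 1 to 60 of the MAGOH coding sequence and the aligned bases 7 to 66 of MAGOHB, 5′ to 3′, from the GENCODE 29 transcripts on GRCh38, with the 11 bases that differ in capitals.
MAGOH: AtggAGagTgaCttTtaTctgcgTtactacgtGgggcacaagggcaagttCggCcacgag
MAGOHB: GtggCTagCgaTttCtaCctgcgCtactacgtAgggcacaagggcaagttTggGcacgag
Over the 441 aligned coding bases 381 were identical (86.4%), and the longest run without a difference was 38 bases. MAGOH lies on chromosome 1, 53226892 to 53238610, and MAGOHB on chromosome 12, 10604190 to 10613623, both on the minus strand. Cut into windows of 28 bases, about a footprint, 18.1% of the MAGOH coding windows and 32.4% of those of MAGOHB also occurred in a transcript of another gene, pseudogenes included. With each other the paralogues shared 16 such windows, of 414 in MAGOH and 420 in MAGOHB. The share was 68.5% for RBM8A (with RBM8B), 66.5% for UPF3A (with UPF3AP1 and its other pseudogenes), 40.5% for USP10 and 30% for SMG1. It was 0% for VCP, UPF1, UPF2, GIGYF1, UPF3B, SMG5, SMG9, ASCC2, NEMF and EDF1, and 3.99% for RACK1. How reads from shared windows were assigned is not given in the sources used here, so the levels of members with large shares are uncertain.

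RPL4 was measured first as a check of the genotype labels. Its level was 2515 and 2586 RPKM (reads scaled by coding length and by the library total) in the untreated and treated wild type, and 1707 and 1439 in the mutant. It fell by 0.71 on the log2 scale over both treatments (SE 0.148, limma, adjusted p = 0.0447), a call that ended under 2 of 9 alternative settings. An RPL4 transgene would be read as RPL4, and a fall was not particular to RPL4, so the check is partial. The member RACK1 had a limma effect of −0.64 (SE 0.152) in the mutant. Of 1721 genes averaging at least 100 RPKM, 1137 without and 1176 with the drug were lower in the mutant, relative to the median gene. By totals inferred from the RPKM values, the libraries held 2965243 and 2555613 reads in wild type cells and 604506 and 993461 in the mutant. Ratios that use the mutant therefore have wider counting intervals. Of 8 marker genes of HEK293 cells, 7 were above 0 in all 4 libraries, with sums of 1145 to 1915 RPKM, carried mostly by KRT8, KRT18 and VIM, while PAX2 and LHX1 were at 1.61 to 7.42 RPKM and NEFM was below 1 RPKM in every library. The sums were at most 4.71 RPKM for 4 blood cell markers and 14.9 RPKM for 7 markers of liver, muscle and fibroblasts.

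The members spanned a wide range of levels, which the plot of member levels shows by role. RACK1, a small-subunit protein at the site where collisions are sensed, had the highest mean at 3135 RPKM. EDF1, which binds collided ribosomes and recruits silencing factors, followed at 1262, and then came 3 proteins of the exon junction complex, RBM8A (620), EIF4A3 (306) and MAGOH (262). The lowest were LTN1 (4.48), the ubiquitin ligase for stalled chains, SMG1 (6.27), the kinase of UPF1, and ASCC3 (7.0), the helicase that pulls the leading ribosome apart. LTN1 fell just short of the minimum mean of 5 RPKM used for ratios, which left 32 members among 9612 genes. Its 4 values were 4.22, 4.82, 4.26 and 4.63 RPKM, with overlapping counting intervals.

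**Figure D1:**
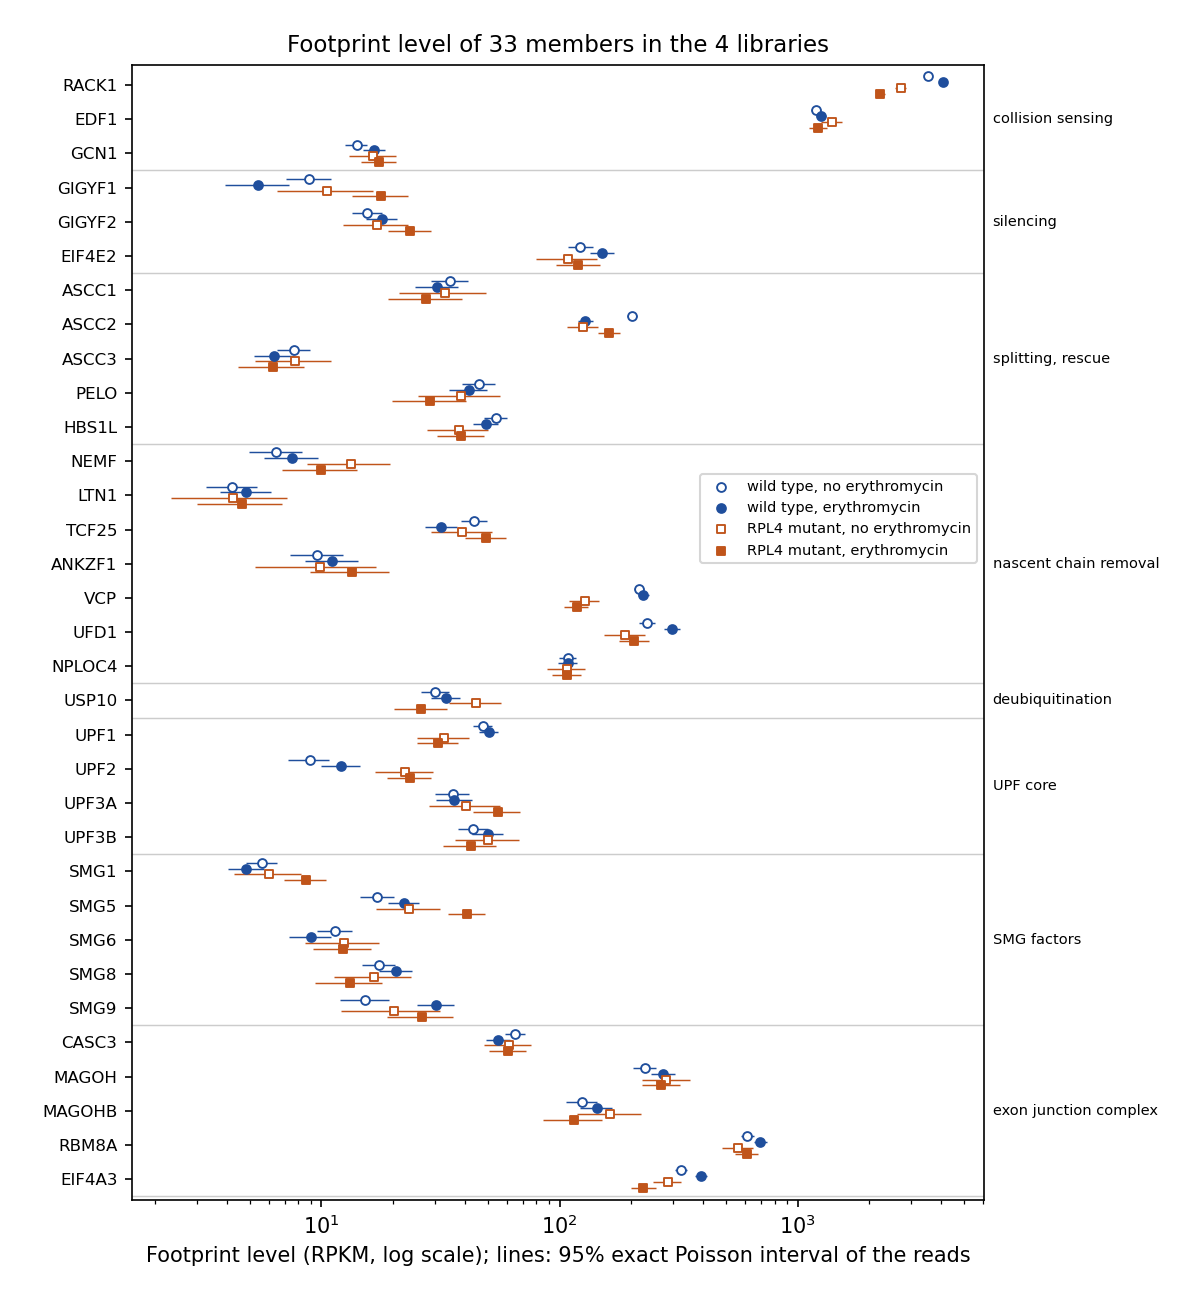
Footprint level of each of the 33 members (rows, grouped by role) in RPKM on a log axis, with 1 point per library (circles wild type, squares RPL4 mutant, filled with erythromycin) and lines for the 95% exact Poisson interval of the reads. RACK1 and EDF1 lie rightmost in all 4 libraries, and the squares of RACK1, VCP and UPF1 lie left of their circles while those of UPF2 lie right.

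All members together took 0.763% of reads in untreated wild type (95% Wilson interval 0.754% to 0.773%) and 0.83% in treated wild type (0.819% to 0.842%). In the mutant they took 0.654% (0.634% to 0.674%) and 0.61% (0.595% to 0.625%). RACK1 alone made up 44.1% and 46.9% of member reads in wild type cells and 39.5% and 34.8% in the mutant. Members other than RACK1 took 0.426% and 0.441% of reads in wild type cells and 0.396% and 0.398% in the mutant. The share held by the set was thus lower in both mutant libraries, and the larger part of that gap lay in RACK1.

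The ratios that follow (an erythromycin ratio is with over without the drug) are log2 ratios of RPKM + 1, centred on the median of the 9612 genes, with a 95% counting interval in brackets. The interval comes from the reads alone, with nothing added, so at low levels the value can lie off its middle. With 1 library per group no ratio has a replicate check, and intervals cover counting error only. A member is said to be beyond counting error where the interval excludes a ratio of 1. These libraries are bulk and none is of total mRNA, so fewer cells with a transcript, less of it per cell and less translation of it cannot be told apart.

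In wild type cells with erythromycin 0 members were at or beyond 2-fold, where 1.73% of all genes were higher and 1.54% lower by that much. Beyond counting error, 10 of 32 members were higher and 4 lower, against 14.2% and 13.9% of genes. These shares are not matched for level or depth. The median over members was 0.18 (quartiles −0.14 and 0.24), beside 0 for all genes (quartiles −0.24 and 0.23), and 22 members were above 0. Decay factors had a median of 0.21 and quality control factors one of 0.08. In the mutant the same comparison also gave 0 members at 2-fold, where 6.22% of genes were higher and 3.39% lower. There 2 members were higher and 4 lower beyond counting error, against 7.22% and 7.69% of genes, and the median was −0.06.

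Without erythromycin, 1 member (UPF2) was 2-fold higher in the mutant than in wild type cells and 0 were lower, where 5.29% and 3.32% of genes were. Beyond counting error 4 were higher and 5 lower, against 9.49% and 9.3% of genes, with a median of 0.05. With erythromycin, 1 member (GIGYF1) was 2-fold higher in the mutant and 0 lower, against 7.02% and 2.26% of genes. Beyond counting error 7 were higher and 10 lower, against 16.1% and 16.9% of genes, with a median of −0.10. For the mutant response minus the wild type response to the drug, 1 member (GIGYF1) was beyond 2-fold upward and 0 downward, against 8.34% and 5.58% of genes. Beyond counting error 4 members were higher and 5 lower in that difference, against 9.18% and 10.4% of genes. Members therefore reached 2-fold no more often than other genes, and single members carry the results below. The comparisons share libraries, so their values are not independent of each other.

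**Figure D2:**
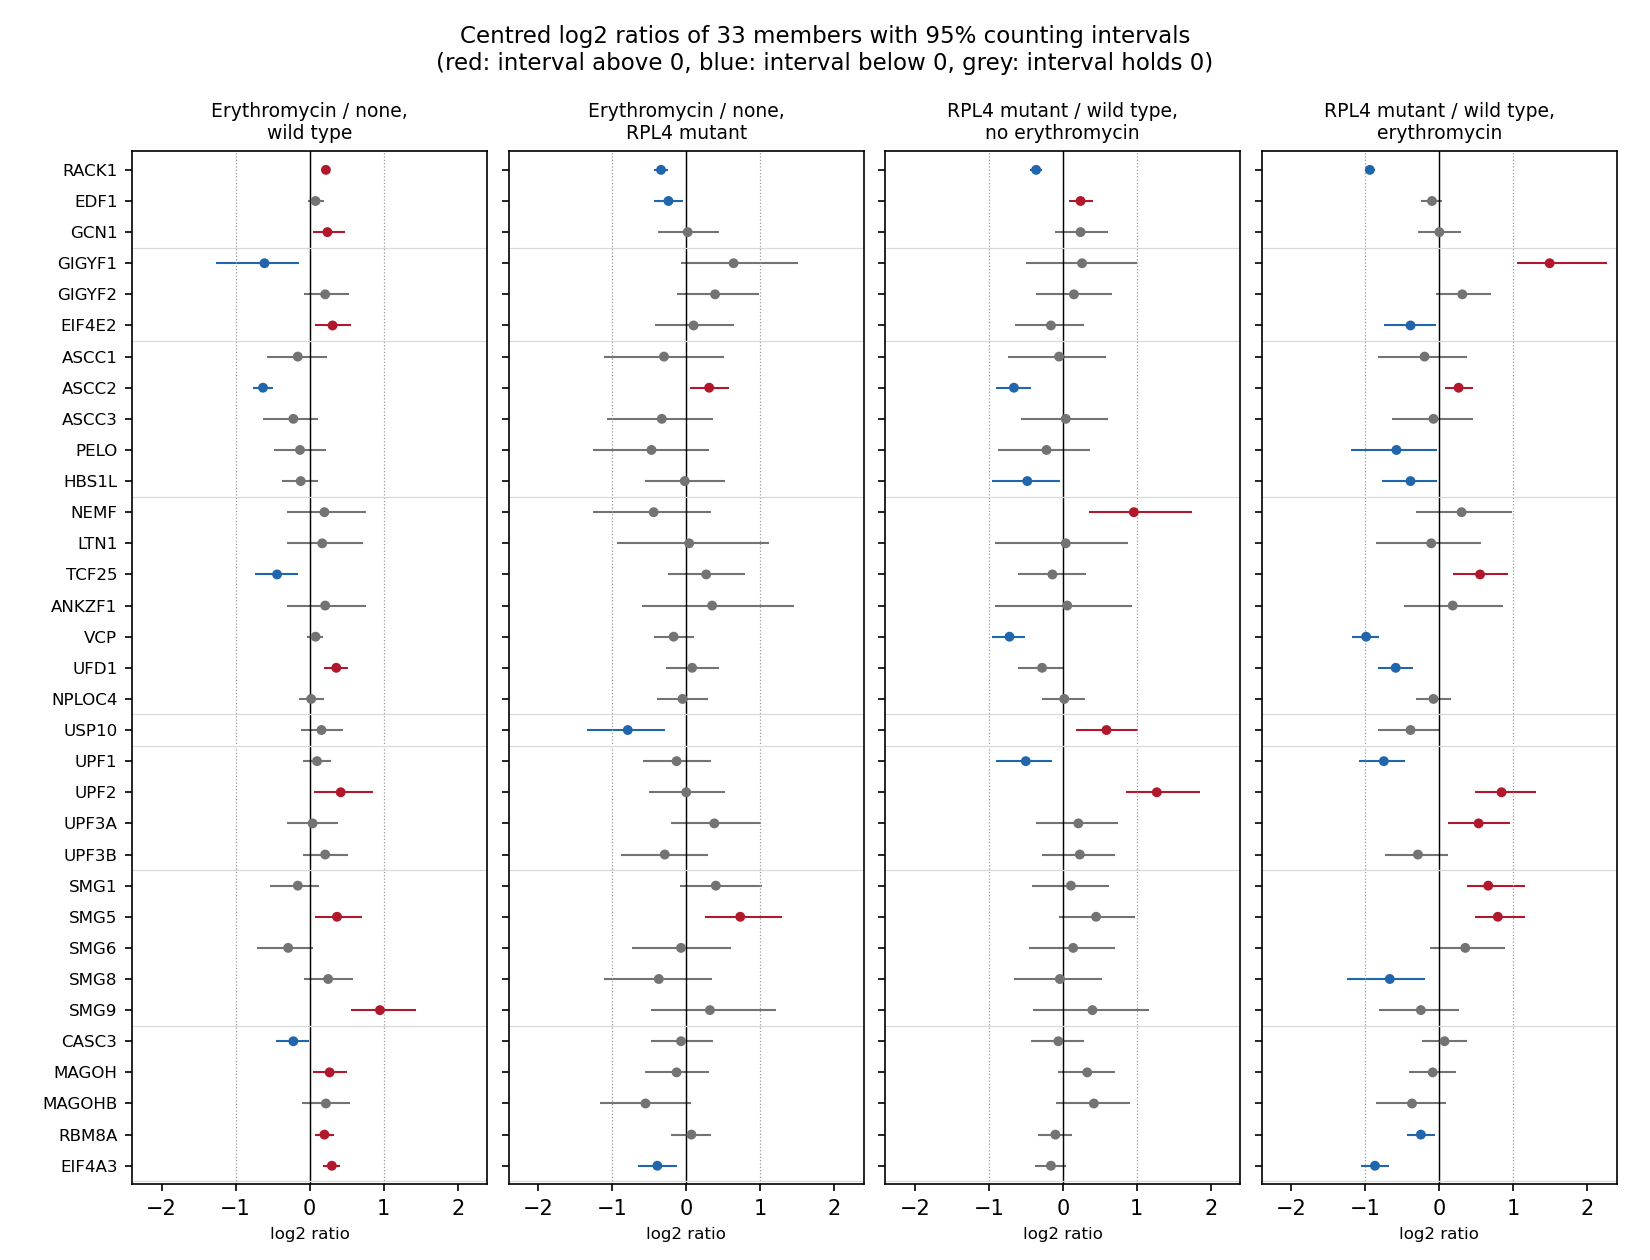
Centred log2 ratios of the 33 members (rows) in the 4 single comparisons (panels), with 95% counting intervals as lines and dotted lines at 2-fold. Red marks intervals above 0, blue below 0 and grey those that hold 0. UPF2 lies beyond 2-fold in the third panel and GIGYF1 in the last, while RACK1 and VCP are blue in both panels that compare genotypes.

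Over both treatments or both genotypes, limma's additive model called 0 members at an adjusted p of 0.05. It called 12 of 9612 genes for erythromycin (0.125%) and 123 for the mutant (1.28%). At an unadjusted p under 0.05 there were 0 members for erythromycin, where 540 genes passed, and 6 for the mutant, where 1132 genes passed. The model sets 2 libraries against 2 with 1 residual degree of freedom and is exploratory. The 6 members were RACK1 (−0.64, SE 0.152, limma adjusted p = 0.0841), VCP (−0.85, SE 0.219, 0.112), UPF2 (1.06, SE 0.307, 0.163), UPF1 (−0.62, SE 0.259, 0.382), EIF4A3 (−0.51, SE 0.222, 0.403) and SMG5 (0.63, SE 0.277, 0.408). RACK1 passed under 6 of 9 alternative settings (limma adjusted p from 0.011 to 0.513) and VCP under 2 of 9 (0.00331 to 0.36). The other 4 passed under none of the alternatives run for them.

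Among the sensors, RACK1 (chromosome 5, 181236937 to 181244209, minus strand) was at 3531 RPKM (9990 reads) in wild type without erythromycin and 4082 (9951 reads) with it. In the mutant it was at 2703 (1559 reads) and 2222 (2106 reads). Both mutant libraries lay below both wild type libraries, and the drug went with a higher level in wild type cells and a lower one in the mutant. The ratio of mutant to wild type was −0.36 [−0.44, −0.28] without and −0.94 [−1.01, −0.87] with erythromycin. The erythromycin ratio was 0.22 [0.18, 0.26] in wild type cells and −0.34 [−0.43, −0.24] in the mutant, a difference of −0.56 [−0.66, −0.46].

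EDF1 kept a narrower range, at 1193 and 1252 RPKM in wild type cells and 1388 and 1216 in the mutant. Its ratio of mutant to wild type was 0.24 [0.08, 0.41] without the drug, opposite in sign to that of RACK1, and −0.10 [−0.25, 0.04] with it. The erythromycin ratio of EDF1 was 0.08 [−0.02, 0.19] in wild type cells and −0.24 [−0.44, −0.05] in the mutant. Their difference was −0.33 [−0.54, −0.11], of the same sign as for RACK1. The level of RACK1 relative to EDF1 was 2.96 and 3.26 in wild type cells and 1.95 and 1.83 in the mutant. GCN1, which binds collided ribosomes and activates the kinase GCN2, was at 14.1 to 17.5 RPKM in all libraries. It was beyond counting error only in wild type with the drug (0.24 [0.04, 0.48]).

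The silencing factors GIGYF1 and GIGYF2 are scaffolds that hold EIF4E2, a cap-binding protein that blocks initiation. GIGYF1 (chromosome 7, 100679507 to 100689448, minus strand) was at 8.90 RPKM (82 reads) and 5.41 (43 reads) in wild type without and with erythromycin, and at 10.6 (20 reads) and 17.8 (55 reads) in the mutant. The mutant with the drug was the highest library and wild type with the drug the lowest. The ratio of mutant to wild type was 1.49 [1.05, 2.27] with erythromycin and 0.26 [−0.50, 1.00] without it. Erythromycin over none was −0.61 [−1.27, −0.15] in wild type cells and 0.64 [−0.07, 1.51] in the mutant, a difference of 1.25 [0.48, 2.30] that rests on 20 to 82 reads a library.

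GIGYF2, its paralogue, was at 15.6, 18, 17.1 and 23.6 RPKM in the same order, and none of its ratios was beyond counting error. GIGYF2 stood above GIGYF1 in all 4 libraries, by a level ratio of 1.75 and 3.32 in wild type cells and 1.61 and 1.33 in the mutant. EIF4E2 was at 122 and 151 RPKM in wild type cells and 108 and 120 in the mutant, higher with erythromycin in wild type (0.31 [0.07, 0.56]) and lower in the mutant than in wild type with the drug (−0.39 [−0.75, −0.04]).

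The 5 factors of subunit splitting and rescue were all below 0 in wild type with erythromycin, from −0.63 to −0.12, but of these ASCC2 alone was beyond counting error. ASCC2 (chromosome 22, 29788642 to 29838276, minus strand) is the ubiquitin-binding subunit of the splitting complex. It was at 201 RPKM (1358 reads) and 128 (746 reads) in wild type without and with the drug, and at 125 (172 reads) and 161 (364 reads) in the mutant. Untreated wild type stood above the other 3 libraries. The erythromycin ratio was −0.63 [−0.77, −0.50] in wild type cells and 0.31 [0.05, 0.58] in the mutant, a difference of 0.94 [0.66, 1.24]. The ratio of mutant to wild type was −0.66 [−0.90, −0.43] in untreated and 0.26 [0.08, 0.45] in treated cells.

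Its partners in the complex showed no such pattern. The helicase ASCC3 was at 6.24 to 7.76 RPKM and ASCC1 at 27.6 to 34.8, and none of their ratios was beyond counting error. Of the pair that frees ribosomes with an empty decoding site, PELO ranged from 28.7 to 46.0 RPKM and its GTPase partner HBS1L from 37.8 to 54.0. HBS1L was lower in the mutant in both treatments (−0.48 [−0.96, −0.04] and −0.39 [−0.78, −0.03]), and PELO with erythromycin (−0.58 [−1.20, −0.03]).

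In the removal of the nascent chain, NEMF binds the exposed large subunit and extends the chain, LTN1 ubiquitinates it, and VCP with UFD1 and NPLOC4 pulls it out. VCP (chromosome 9, 35056064 to 35073249, minus strand) was at 215 RPKM (1545 reads) and 224 (1389 reads) in wild type cells and at 128 (187 reads) and 118 (283 reads) in the mutant. Both mutant libraries lay below both wild type libraries. The ratio of mutant to wild type was −0.72 [−0.95, −0.51] without and −0.99 [−1.18, −0.81] with erythromycin, and the drug itself gave 0.08 [−0.03, 0.18] in wild type.

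The adaptors of VCP differed from each other. NPLOC4 was at 107 or 108 RPKM in every library, and its ratio of mutant to wild type was 0.02 [−0.28, 0.30] in untreated and −0.08 [−0.32, 0.16] in treated cells. UFD1 was at 233 and 296 RPKM in wild type cells and 188 and 206 in the mutant, higher with the drug in wild type (0.36 [0.20, 0.52]). Like VCP it was lower in the mutant with the drug (−0.59 [−0.83, −0.35]), and without it its ratio was −0.28 [−0.60, 0.01], within counting error. UFD1 is 1 of the members under an antisense gene, over 12.3% of its coding sequence. VCP also works in many other pathways of protein extraction, so its level is not specific to stalled ribosomes.

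NEMF was at 6.47 and 7.51 RPKM (62 reads each) in wild type cells and 13.3 (26 reads) and 9.97 (32 reads) in the mutant. Its ratio of mutant over wild type without the drug was 0.96 [0.35, 1.75], just under 2-fold. NEMF stood above LTN1 by a level ratio of 1.53 and 1.56 in wild type cells and 3.13 and 2.15 in the mutant. No interval was computed for that ratio. LTN1, which was under the minimum mean, had 68 and 67 reads in wild type cells and 14 and 25 in the mutant. TCF25, which assists LTN1, was lower with erythromycin in wild type (−0.44 [−0.74, −0.16]) and higher in the mutant than in wild type with the drug (0.55 [0.19, 0.93]). ANKZF1, which releases the chain from its tRNA, was at 9.59 to 13.4 RPKM with no ratio beyond counting error.

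USP10, a deubiquitinase that reverses small-subunit ubiquitination, was at 30.0 (214 reads) and 33.3 (205 reads) RPKM in wild type cells and at 44.6 (65 reads) and 26.3 (63 reads) in the mutant. The untreated mutant was the highest library and the treated mutant the lowest. Erythromycin over none in the mutant was −0.79 [−1.34, −0.29], and mutant over wild type without the drug was 0.59 [0.18, 1.01].

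In the core of nonsense-mediated decay, UPF1 and UPF2 differed between genotypes in opposite directions. UPF2 (chromosome 10, 11920022 to 12035897, minus strand), the bridge between UPF1 and UPF3 proteins, was at 8.92 RPKM (101 reads) and 12.1 (118 reads) in wild type cells and at 22.5 (52 reads) and 23.5 (89 reads) in the mutant. Both mutant libraries lay above both wild type libraries, with no overlap of counting intervals. The ratio of mutant to wild type was 1.27 [0.85, 1.86] without and 0.84 [0.48, 1.30] with erythromycin.

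UPF1, the helicase, was at 47.5 (477 reads) and 50.4 (437 reads) RPKM in wild type cells and at 32.7 (67 reads) and 30.9 (104 reads) in the mutant. Its ratio of mutant to wild type was −0.50 [−0.90, −0.14] in untreated and −0.75 [−1.09, −0.46] in treated cells. UPF1 therefore stood 5.32 and 4.17 times above UPF2 per coding length in wild type, and 1.45 and 1.32 times in the mutant.

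The paralogues UPF3A and UPF3B, of which UPF3B is the stronger activator of decay, lay close together. UPF3B was at 43.4 and 49.9 RPKM in wild type cells and 50.1 and 42.3 in the mutant, with no ratio beyond counting error. UPF3A was at 35.6 and 36.1 in wild type cells and 40.5 and 54.9 in the mutant, and was higher in the mutant with erythromycin (0.53 [0.12, 0.96]). UPF3B stood above UPF3A in 3 libraries, by level ratios of 1.22, 1.38 and 1.24, and below it in the mutant with the drug, at 0.771. Most UPF3A windows also occur in its pseudogenes, as given above, so this order is uncertain.

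Among the SMG factors, SMG5, which binds phosphorylated UPF1 and brings in decay enzymes, was at 17.1 (155 reads) and 22.2 (173 reads) RPKM in wild type cells and at 23.3 (43 reads) and 40.9 (124 reads) in the mutant. It was higher with erythromycin beyond counting error in both genotypes, at 0.37 [0.07, 0.71] and 0.73 [0.25, 1.29], and no other member was. The mutant with the drug was the highest library, at 0.79 [0.48, 1.16] over wild type.

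SMG9, which with SMG8 restrains the kinase SMG1, was at 15.3 (71 reads) and 30.3 (121 reads) RPKM in wild type cells and 20.1 (19 reads) and 26.4 (41 reads) in the mutant. Its ratio of 0.95 [0.56, 1.44] in wild type with erythromycin was the highest of any member there. SMG8 was at 17.5, 20.6, 16.7 and 13.2 RPKM, lower in the mutant than in wild type with the drug (−0.67 [−1.25, −0.19]). SMG1 was at 5.62, 4.84, 6.02 and 8.61 RPKM, higher in that comparison (0.66 [0.37, 1.16]), with many of its windows found in pseudogenes. SMG6, the endonuclease of the pathway, was at 9.0 to 12.4 RPKM with no ratio beyond counting error.

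Of the exon junction complex, 4 of 5 members were above 0 with erythromycin in wild type cells and 4 of 5 below 0 in the mutant. Centring puts 4806 of the 9612 genes on each side of 0. In the mutant EIF4A3 alone of the complex was beyond counting error. EIF4A3 (chromosome 17, 80135214 to 80147183, minus strand), the helicase that grips the mRNA, was at 324 RPKM (1186 reads) and 394 (1243 reads) in wild type cells and at 284 (212 reads) and 225 (276 reads) in the mutant. Both mutant libraries lay below both wild type libraries, although without the drug the gap was within counting error. The erythromycin ratio was 0.30 [0.18, 0.41] in wild type cells and −0.39 [−0.65, −0.12] in the mutant, a difference of −0.68 [−0.97, −0.40]. The ratio of mutant over wild type with the drug was −0.87 [−1.06, −0.68].

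RBM8A, the partner of both MAGOH proteins, was at 613 and 696 RPKM in wild type cells and 561 and 612 in the mutant, with ratios of 0.20 [0.07, 0.33] for the drug in wild type cells and −0.25 [−0.44, −0.06] for the mutant with the drug. Antisense genes also cover 35.8% of its coding sequence. MAGOH was at 228 and 272 RPKM in wild type cells and 281 and 267 in the mutant, and MAGOHB at 124 and 143 and at 163 and 115. The erythromycin ratio of MAGOHB was 0.22 [−0.10, 0.54] in wild type and −0.55 [−1.17, 0.06] in the mutant, each within counting error, and their difference of −0.77 [−1.44, −0.12] was beyond it. For MAGOH the difference was −0.40 [−0.88, 0.08]. MAGOH stood above its paralogue in all 4 libraries, by level ratios of 1.84 and 1.91 in wild type cells and 1.73 and 2.33 in the mutant. The sum of MAGOH and MAGOHB relative to EIF4A3 was 1.09 and 1.05 in wild type cells and 1.57 and 1.70 in the mutant. CASC3, a peripheral subunit, was at 55.0 to 65.0 RPKM and slightly lower with the drug in wild type (−0.22 [−0.45, −0.01]).

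Members with high levels tended to have lower ratios of mutant to wild type, as did genes at large. Across the 32 members, the ratio of mutant over wild type with erythromycin went with the mean log level at Pearson r = −0.53 and Spearman rho = −0.55, and at −0.47 and −0.50 without RACK1. Over all 9612 genes the values were −0.21 and −0.28. Without the drug they were −0.39 and −0.43 over members and −0.09 and −0.16 over all genes. With the drug the ratio also went with coding length, at r = 0.40 and rho = 0.45 over members and 0.13 and 0.12 over genes with a known length. These are correlations across genes, which share libraries and depth and are no replicates. Of 11 members with a mean of at least 100 RPKM, a limit set after seeing the values, 10 were below 0 with the drug (median −0.37), beside 1176 of 1721 genes at that level (median −0.19). Without the drug 7 of the 11 were below 0 (median −0.16), beside 1137 of the 1721 genes (median −0.13). The 21 members under that level had a median of 0.07 with the drug, against 0.05 for 7891 genes. Among the 11, the exception with the drug was ASCC2.

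**Figure D3:**
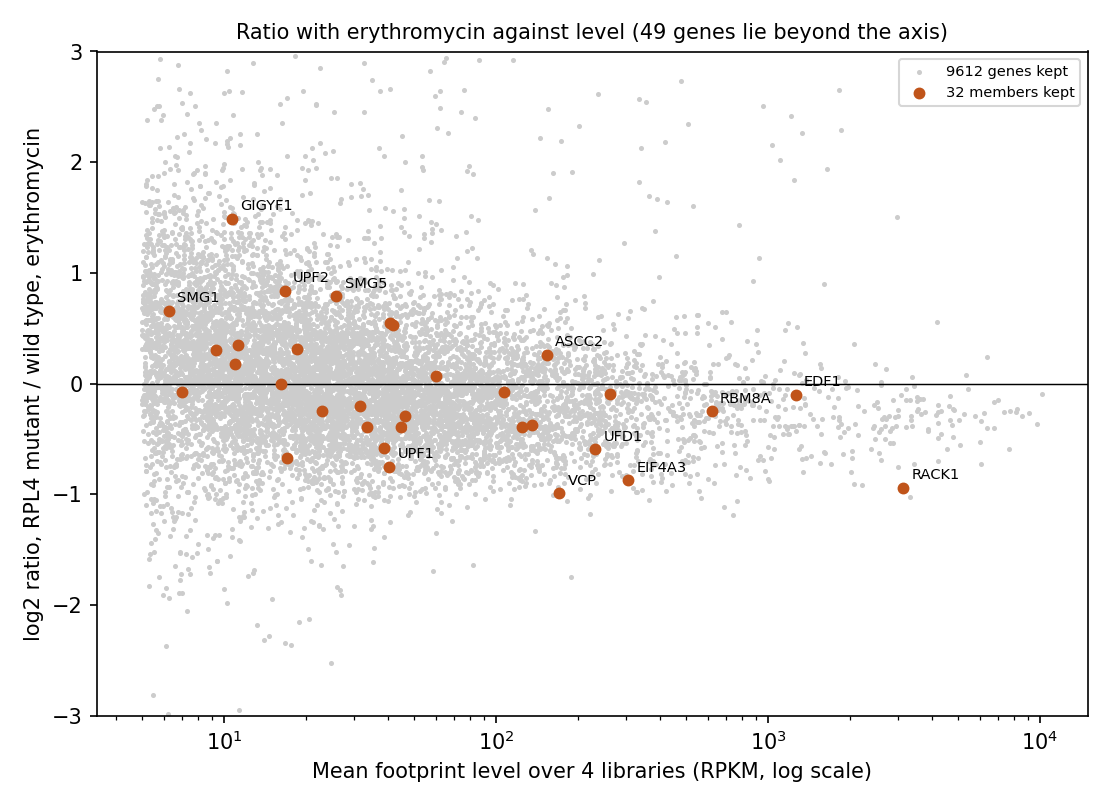
Log2 ratio of mutant over wild type with erythromycin (vertical axis) against the mean level over 4 libraries in RPKM (log axis), for the 9612 genes kept (grey) and the 32 members kept (orange). The 11 members above 100 RPKM lie below 0 except ASCC2, and GIGYF1 is the highest member.

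Genes of the same pathways outside the set were read from lists of known factors. Of 28 other factors of stalling and quality control, limma called 1 for the mutant and 0 for erythromycin. UFL1, the ligase that attaches UFM1 to the large subunit at the endoplasmic reticulum, was at 43.6 and 57.3 RPKM in wild type cells and 316 and 277 in the mutant, and rose by 2.53 in the mutant (SE 0.245, limma, adjusted p = 0.000207). ABCE1, the ATPase that recycles ribosomes, was at 71.8, 77.6, 56.1 and 36.3 RPKM, and was lower in the mutant with the drug (−1.14 [−1.56, −0.77]). The medians of the list were 0.01 and −0.08 for erythromycin in wild type cells and mutant and 0.02 and −0.24 for the mutant without and with the drug.

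Of 22 other decay factors 21 were kept, and limma called 1 for the mutant and 0 for erythromycin. ACIN1, a splicing protein that joins the exon junction complex, was at 400 and 268 RPKM in wild type cells and 2601 and 1141 in the mutant, and rose by 2.38 in the mutant (SE 0.196, limma, adjusted p = 6.95e-05). Both calls held under all 9 alternative settings. Whether reads on UFL1 and ACIN1 were spread over the transcript was not tested, since the files hold 1 value per transcript. PYM1, which takes exon junction complexes apart, was at 45.0, 50.3, 75.3 and 42.6 RPKM, a difference between the genotypes' responses of −1.03 [−1.94, −0.16]. The medians of this list were 0.02, −0.20, 0.05 and −0.23 in the same order.

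Genes known to give rise to targets of nonsense-mediated decay were listed by symbol, and 21 of 24 were kept. GENCODE marks the transcript read as protein coding for 20 of the 21 and as a decay target for 1, HNRNPDL, so for splicing factors such as SRSF3 and TRA2B, whose decay targets are isoforms with a poison exon, the values are not those of the targeted isoform. In wild type with erythromycin, 6 of the 21 were at least 2-fold higher and 0 lower, beside 1.73% and 1.54% of all genes. Beyond counting error 12 were higher and 0 lower, beside 14.2% and 13.9%, and the other 9 were within it. The list was chosen with earlier results of these data known, so its counts are no independent evidence about decay targets. GADD45B, a growth-arrest gene, was at 31.1 and 177 RPKM in untreated and treated wild type (2.48 [2.07, 3.0]), and at 62.3 and 58.8 in the mutant. DDIT3 (1.72 [1.13, 2.47]) and ATF3 (1.17 [0.78, 1.60]), stress transcription factors, followed, with UPP1 (1.06 [0.64, 1.57]), GADD45A (1.06 [0.73, 1.41]) and PPP1R15A (1.06 [0.73, 1.5]). The list's median was 0.34, with 17 of 21 above 0, while SRSF7 and TRA2B were both at −0.06.

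In the mutant the same list had a median of −0.09 with erythromycin, and 0 of its genes were at 2-fold. Intervals there were wide, and those of DDIT3 (0.06 [−1.20, 1.42]) and GADD45A (0.60 [−0.16, 1.43]) include a 2-fold rise. GADD45B differed most between the genotypes' responses (−2.62 [−3.58, −1.73]), where 20 and 31 reads stand behind its mutant values. Of mutant over wild type the median was 0.01 without and −0.50 with the drug, with 19 of 21 below 0 in the latter. Without the drug GADD45B was already higher in the mutant (1.00 [0.20, 1.80]). DDIT3 (0.70), ATF3 (0.69) and PPP1R15A (0.58) were above 0 there, and GADD45A (−0.20) and UPP1 (−0.17) below it, each within counting error. Limma called 0 of the 21 listed genes for either effect. ATF3, ATF4, DDIT3 and PPP1R15A are also targets of the integrated stress response, which GCN1 helps to start. That list (19 of 20 kept), also chosen with earlier results known, had medians of 0.18, 0.03, −0.03 and −0.27. In wild type with the drug 9 of its 17 genes with recovered reads were higher and 1 lower beyond counting error, beside 14.2% and 13.9% of all genes. TRIB3, a pseudokinase induced by stress, was at 21.8, 37.8, 25.7 and 18.3 RPKM and was lower in the mutant with the drug (−1.08 [−1.86, −0.43]). ASNS, the asparagine synthetase and the 1 lower gene, was at 132, 104, 82.4 and 86.6 RPKM (−0.33 [−0.51, −0.16] for the drug in wild type). Stress-responsive transcription, translation and decay cannot be told apart for any of the listed genes, and no cause was tested.

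**Figure D4:**
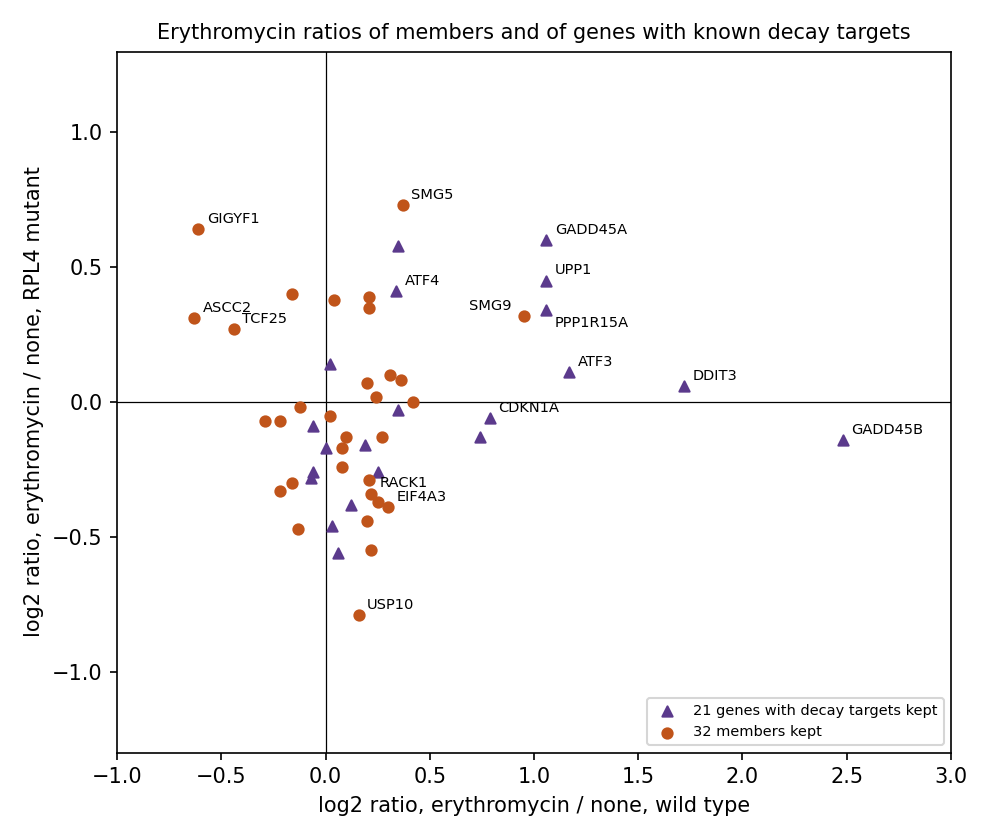
Log2 ratio of erythromycin over none in wild type (horizontal axis) against that in the RPL4 mutant (vertical axis) for the 32 members (orange circles) and 21 genes listed for known decay targets (purple triangles). The listed genes spread to the right up to GADD45B at 2.48, while no member lies beyond 1 on either axis.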

How the data were processed

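The authors deposited 1 value in RPKM per transcript and library, listing only values above 0, so an absent transcript was read as 0. Cutadapt, STAR and the build GRCh38 appear in the submitters' processing notes, and their roles and versions and the read counter are not given in sources used here. Library totals were inferred from the values, by taking the lowest products of RPKM and coding length (GENCODE 29) as 1 read. Multiplying RPKM by coding length and the inferred total gave whole reads, within 0.001, for 99.2% of matched transcripts in each library. Of 16292 transcripts, 16172 were matched.

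Ratios were taken of log2(RPKM + 1) for genes averaging 5 RPKM or more and centred on their median. Ratio intervals are exact binomial (Clopper-Pearson, 95%) on recovered reads, and those of differences use a normal approximation on log reads. Their median half-width was 0.29 and 0.53 for erythromycin in wild type and mutant, 0.48 and 0.37 for mutant over wild type without and with the drug, and 0.58 for the difference. Reads per member ran from 62 to 9990 and 43 to 9951 in wild type and from 13 to 1559 and 25 to 2106 in the mutant. The effects of genotype and drug over all 4 libraries were fitted with limma 3.58.1 under R 4.3.3. The model was additive in genotype and treatment, with a variance trend and Benjamini-Hochberg adjustment. Its code was run on simulated reads with counting error only and planted 4-fold changes between genotypes. That run cannot show how often limma errs here, since other variation between libraries was left out.

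The members and lists were chosen with earlier results of these data known, and so was the rule for counting error. Values in all libraries were to be given for the 5 members of highest mean, members at 2-fold with an interval that excludes 1, limma calls and paralogue pairs. Pathway genes averaging 20 RPKM or more were named at 2-fold in a single comparison with an interval that excludes 1. Other members, ASNS, PYM1, HNRNPDL, SRSF3, SRSF7 and TRA2B were named after their values were seen. Alternatives were other pseudocounts, filters, scalings and limma models. No source used here says that libraries came from separate cultures, so p-values do not measure the spread between cultures. In the additive model, a gene's residual comes from its difference between the genotypes' responses, moderated by the variance of other genes.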

Additional observations from a re-analysis of the deposited data

Results flagged for a closer look

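RACK1, EIF4A3 and ASCC2 had erythromycin ratios of opposite sign in the 2 genotypes, with both counting intervals off 0. The mutant log2 ratio minus the wild type log2 ratio was −0.56 for RACK1 and −0.68 for EIF4A3, both higher with the drug in wild type and lower in the mutant, and 0.94 for ASCC2, which went the other way. Outside the set, RPL4 (0.06 in wild type and −0.30 in the mutant) and GSPT1 (0.22 and −0.55) had the same pattern as RACK1. So did SRSF3 (0.25 and −0.26) and UFL1 (0.40 and −0.24). The share of all genes with opposite signs was not counted. With 1 library per group the difference between the genotypes' responses was not tested.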

How the results depend on the processing

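The median over members for mutant over wild type without erythromycin turned to −0.03 with the minimum mean at 20 RPKM (22 members), and the other medians kept their sign under every pseudocount, filter and scaling run. Under that filter 0 members were at 2-fold in either genotype comparison or in the difference, since UPF2 and GIGYF1 drop out. Members at 2-fold for mutant over wild type with the drug numbered 2 with the minimum mean at 1 RPKM and with no filter (VCP at −1.05 and −1.04 joins GIGYF1). Without the drug there were 2 with a pseudocount of 0.1 RPKM (NEMF at 1.06 joins UPF2). In the difference there were 2 with no centring (ASCC2 at 1.01) and 0 with a pseudocount of 5 RPKM (GIGYF1 at 0.90). Members called by limma for the mutant numbered 2 with the minimum mean at 1 RPKM and with no filter (RACK1 and VCP), and 1 (RACK1) with the minimum mean at 20 RPKM, no centring or a pseudocount of 0.1 or 5 RPKM. Over all genes limma called 123 for the mutant, against 54 with no term for treatment, 65 with no trend and 441 with no filter, and 12 for erythromycin, against 0, 0 and 149. The RPL4 call ended with no trend (limma adjusted p = 0.445) and with no term for treatment (0.0829). The cause of these shifts was not tested.

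No paired analysis was possible because each group has 1 library and the labels link none across groups. Leaving out a library was not run, since it leaves no residual degrees of freedom. Depth limits the mutant most: a median member had 47 and 89 reads there, against 187 and 182 in wild type.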
